A study of Mus musculus with 4 samples.

Results

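The 9 genes described here belong to the glucocorticoid response, the FoxO response and T cell quiescence, and were followed in invariant natural killer T cells (iNKT cells) of the mouse thymus. These cells carry a nearly fixed T cell receptor that reads lipids held by CD1d. The genes are Nr3c1, Tsc22d3, Fkbp5, Per1, Ddit4, Foxo1, Klf2, Pik3ip1 and Txnip, which are 9 of the 32285 genes in the deposited counts, matched by gene symbol. All 9 were found and all 9 passed the filter on low counts in the main comparisons. Tsc22d3 gave no value in iNKT2-like cells under 2 of the alternatives. They were chosen with ACC1 KO and WT levels in these libraries known, so their genotype differences are given as a description and support no conclusion.

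The cells were sorted as CD3+ and CD1d tetramer+ after magnetic enrichment, from the thymus of mice 6 to 8 weeks old, and were profiled in 4 single-cell libraries made with the 10x Genomics 3′ kit. There were 2 libraries labelled ACC1 KO and 2 labelled wild type (WT), each numbered 1 and 2. Acaca encodes ACC1, whose product malonyl-CoA feeds the building of fatty acids, and the study asked how the enzyme bears on iNKT cell survival. No source used here gives the Cre line, the deleted exons, the mouse strain or how many mice made up a library, nor says that libraries came from separate mice. P-values therefore measure the spread between these libraries, part of which may be technical. Within each genotype that spread also holds a difference in sex, shown by the transcripts described below.

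Glucocorticoid hormone, made by the adrenal gland and by thymic epithelium, binds a receptor that waits in the cytoplasm with Hsp90 and FK506-binding chaperones. The bound receptor enters the nucleus and switches on a set of genes, some of which restrain T cell activation and some of which favour thymocyte death. FoxO1 is held out of the nucleus while PI3 kinase and AKT signal, and in resting T cells it drives genes of survival, homing and quiescence. iNKT cells divide into iNKT1, iNKT2 and iNKT17 subsets, marked by T-bet, high PLZF and RORγt, which arise from iNKT0 precursors.

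Promoter windows of 300 bases were used for 8 of the genes, all but Nr3c1, which was left out of this search. The 11 windows ran from 250 bases before to 50 after each RefSeq start site on GRCm38.p6 (the same coordinates as mm10). They were searched on both strands for the FoxO core GTAAACA, the core of the glucocorticoid response element ACANNNTGT, the single-repeat motif AGAACA of that element and the E-box CACGTG bound by clock factors and MondoA partners. Of 32851 windows in the genome, 3.65% held the FoxO core, 6.85% the response element core, 19.0% the single repeat and 7.15% the E-box. Windows are shown for Txnip, Tsc22d3, Klf2 and Pik3ip1. Among the 9 genes, Txnip and Tsc22d3 differed by the largest factors between iNKT2-like and iNKT1-like cells. Klf2 correlated with both over the sums of 5 classes described below. Pik3ip1 differed most between genotypes over all iNKT cells. The Txnip window, chr3:96557707-96558006 on the plus strand, held a response element core starting 170 bases and a FoxO core starting 121 bases before the start site. One of the 3 Tsc22d3 windows, chrX:140600473-140600772 on the minus strand, held the single repeat on the opposite strand, starting 185 bases before the start site. The windows of Klf2 (chr8:72318812-72319111, plus strand) and of Pik3ip1 (chr11:3330481-3330780, plus strand) held none of the 4 letter strings. Capitals mark the matches.
Txnip: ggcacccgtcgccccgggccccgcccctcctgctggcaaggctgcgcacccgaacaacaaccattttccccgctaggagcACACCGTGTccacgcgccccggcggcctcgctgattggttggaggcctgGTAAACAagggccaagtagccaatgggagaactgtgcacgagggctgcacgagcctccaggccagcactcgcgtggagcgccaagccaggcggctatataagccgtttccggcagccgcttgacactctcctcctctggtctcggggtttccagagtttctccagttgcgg
Tsc22d3: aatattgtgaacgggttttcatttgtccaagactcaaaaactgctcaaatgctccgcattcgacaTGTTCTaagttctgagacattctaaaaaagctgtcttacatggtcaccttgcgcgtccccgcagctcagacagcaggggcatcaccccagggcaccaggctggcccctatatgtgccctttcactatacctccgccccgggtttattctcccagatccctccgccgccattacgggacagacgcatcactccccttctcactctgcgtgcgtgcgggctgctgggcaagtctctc
Klf2: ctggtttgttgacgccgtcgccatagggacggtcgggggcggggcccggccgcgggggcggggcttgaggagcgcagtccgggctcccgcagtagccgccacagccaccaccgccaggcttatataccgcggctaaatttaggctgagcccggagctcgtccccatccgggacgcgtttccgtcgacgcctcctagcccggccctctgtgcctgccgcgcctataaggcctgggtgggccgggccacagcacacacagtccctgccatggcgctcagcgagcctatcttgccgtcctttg
Pik3ip1: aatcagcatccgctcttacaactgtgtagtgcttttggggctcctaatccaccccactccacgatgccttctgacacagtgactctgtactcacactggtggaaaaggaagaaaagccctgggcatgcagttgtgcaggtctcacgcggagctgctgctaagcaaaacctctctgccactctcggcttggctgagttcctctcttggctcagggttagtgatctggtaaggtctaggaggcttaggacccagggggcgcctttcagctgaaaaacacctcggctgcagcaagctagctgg
An E-box stood 169 bases before the start site of Fkbp5 and 166 bases before one start site of Per1, and the windows of Ddit4 and Foxo1 had no match. A match is a description of these letters and not a shown site, and no match says only that the letters are not in the window.

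The libraries held 33.2 M and 74.2 M UMIs in ACC1 KO 1 and 2, and 29.1 M and 72.8 M UMIs in WT 1 and 2, where a UMI is a molecule counted once and M is mega. Both libraries numbered 1 carried the Y-linked Ddx3y (77.3 CPM in ACC1 KO 1 and 82.4 CPM in WT 1), with Xist at 0.245 and 0.550 CPM. Both numbered 2 carried Xist (653 CPM in ACC1 KO 2 and 586 CPM in WT 2), with Ddx3y at 0.0763 and 0.0472 CPM. The 2 libraries of each genotype thus differed in sex and were not repeats of 1 mouse. Depth and the sex-linked transcripts go with the number. Values from libraries of one number are for that reason printed next to the fitted difference. After filtering, 27031 iNKT cells remained, 5608 and 7800 from ACC1 KO and 4604 and 9019 from WT. Pairs of libraries shared 10 to 27 cell barcodes, at most 0.327% of the smaller library. The 9 genes of the CD3+ T cell marker list were all above 5 CPM. Acaca had 47.5 and 60.1 CPM in ACC1 KO and 34.3 and 32.3 CPM in WT, and 3′ counts do not say whether an inner exon was deleted, so they check nothing about the genotype. Scd1, a stearoyl-CoA desaturase, was the 1 gene of 14739 that the edgeR quasi-likelihood test called between genotypes over all iNKT cells (adjusted p = 0.0140, 1184 UMIs in ACC1 KO and 5 UMIs in WT).

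Clusters were named from marker genes, and their variable genes left out the 9 genes and the 9 gene lists described below. The classes were iNKT1-like (18343 cells in 5 clusters), a separate cluster led by Klra genes, which encode Ly49 receptors (3374 cells), interferon-responding (2290), iNKT2-like (1002), cycling iNKT1-like (927), cycling iNKT2-like (536), iNKT0-like (347) and iNKT17-like cells (212). The iNKT17-like cells numbered only 22 and 31 in ACC1 KO 1 and 2, and 78 and 81 in WT 1 and 2. Since classes come from the same cells, differences between them carry no test. Levels in classes are in CPM, the UMIs of a gene per 1 M UMIs of that class in a library, as mean ± SD over the 4 libraries, and gene positions are on mm10. Levels of different genes are not compared with each other.

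Nr3c1, the glucocorticoid receptor gene (chr18:39410545-39519421, minus strand), was present in every class. It had 185, 222, 184 and 210 CPM in iNKT2-like cells of ACC1 KO 1, ACC1 KO 2, WT 1 and WT 2, against 327, 408, 398 and 383 CPM in iNKT1-like cells of the same libraries. Each iNKT2-like value lay below each iNKT1-like value, and the mean was 1.89-fold lower. Cycling iNKT2-like cells were lower still, at 150 ± 22.2 CPM, and did not overlap the iNKT2-like cells at 200 ± 19.1 CPM. All other classes averaged between 275 and 379 CPM, with neighbours in that order overlapping, and the lowest of them, the Klra-led cells, did not overlap the iNKT2-like cells. Inside the iNKT1-like class the level was uneven: cluster 5, led by ribosomal protein genes, had 158 CPM (below the iNKT2-like cells in 3 of 4 libraries), and the other 4 clusters had 270 to 491 CPM.

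Tsc22d3 encodes GILZ, a leucine zipper protein that glucocorticoids induce and that restrains NF-κB and AP-1 (chrX:140539528-140600659, minus strand). It had 7.81, 3.47, 5.36 and 7.16 CPM in iNKT2-like cells of ACC1 KO 1, ACC1 KO 2, WT 1 and WT 2, against 178, 121, 88.0 and 81.6 CPM in iNKT1-like cells. The 2 classes were far apart in every library, with the mean 19.7-fold lower in iNKT2-like cells and single libraries between 11.4-fold and 34.9-fold lower. The iNKT2-like values rest on 56 UMIs in all. In cycling iNKT2-like cells it averaged 2.63 ± 2.49 CPM, with 0 UMIs in WT 1, a count that allows up to 4.21 CPM there. Interferon-responding cells (131 ± 56.6 CPM), Klra-led cells (81.7 ± 30.3 CPM) and cycling iNKT1-like cells (76.8 ± 25.1 CPM) overlapped the iNKT1-like cells (117 ± 44.0 CPM). Between them and the iNKT2-like cells lay iNKT17-like cells at 26.3 ± 28.5 CPM and iNKT0-like cells at 18.1 ± 11.5 CPM, each on 27 UMIs. No neighbours in that order were separated without overlap. Shares of cells with at least 1 UMI were also taken after thinning each cell to 2000 UMIs. Shallower cells were left out, which were 192 iNKT cells and, of the DP thymocyte-like cells set aside from the sort, 98 of 214 and 17 of 90 in ACC1 KO and 102 of 227 and 13 of 71 in WT. Thinned cells with Tsc22d3 were 1.36 and 0.490% (ACC1 KO) and 1.92 and 2.13% (WT) of iNKT2-like cells, against 30.4 and 21.5% (ACC1 KO) and 14.9 and 15.3% (WT) of iNKT1-like cells. Unthinned, the shares were 4.05 and 3.91% (ACC1 KO) and 2.56 and 4.96% (WT) of iNKT2-like cells, and 50.8 and 51.2% (ACC1 KO) and 30.5 and 36.1% (WT) of iNKT1-like cells. The thinned shares in iNKT2-like cells were below those in the DP thymocyte-like cells deep enough to thin (12.1 to 22.4%), a class whose median depth over all its cells was 2172 to 3051 UMIs, against 7326 to 12240 UMIs in iNKT2-like cells, but no class here is known to lack Tsc22d3, and the part of free RNA in the iNKT2-like counts was not tested.

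Fkbp5 encodes FKBP51, a chaperone that glucocorticoids induce and that lowers the hormone affinity of their receptor (chr17:28399094-28517527, minus strand). It ordered the classes differently from Tsc22d3. Cycling iNKT1-like cells (167 ± 43.3 CPM) and iNKT17-like cells (156 ± 31.6 CPM) were highest and iNKT2-like cells (72.0 ± 10.3 CPM) lowest. The iNKT2-like value was below the iNKT1-like value of the same library in 4 of 4 libraries, by 1.09-fold to 2.10-fold, but the ranges of the classes overlapped.

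Per1 encodes a period protein of the circadian clock whose gene glucocorticoids also induce (chr11:69095217-69109960, plus strand). Its class means ran from 46.5 ± 22.5 CPM in iNKT17-like cells to 17.4 ± 10.7 CPM in cycling iNKT2-like cells, and every class overlapped the next.

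Ddit4, also called REDD1, is induced by stress and glucocorticoids and inhibits mTORC1 (chr10:59949669-59951834, minus strand). Its order ran against that of Tsc22d3. It had 105, 64.4, 113 and 67.2 CPM in iNKT2-like cells of ACC1 KO 1, ACC1 KO 2, WT 1 and WT 2, against 53.1, 31.7, 32.9 and 19.4 CPM in iNKT1-like cells. The iNKT2-like cells were higher in each library, without overlap, with a mean 2.55-fold higher and single libraries between 1.97-fold and 3.47-fold. The cycling cells showed the same order, 72.9 ± 24.1 CPM in cycling iNKT2-like and 23.9 ± 13.4 CPM in cycling iNKT1-like cells, also without overlap.

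Foxo1 itself (chr3:52268336-52353221, plus strand) was highest in iNKT17-like cells, at 155 ± 30.4 CPM, where its values did not overlap those of iNKT1-like cells (85.2 ± 11.5 CPM). The iNKT2-like cells had 102 ± 5.54 CPM and overlapped the iNKT1-like cells. The lowest mean was in iNKT0-like cells, 48.1 ± 29.8 CPM on 78 UMIs.

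Klf2 encodes a zinc finger factor that FoxO1 drives and that keeps T cells quiescent and turns on the egress receptor S1pr1 (chr8:72319033-72321656, plus strand). It had 287, 121, 177 and 153 CPM in iNKT2-like cells of ACC1 KO 1, ACC1 KO 2, WT 1 and WT 2, against 643, 494, 390 and 421 CPM in iNKT1-like cells. The iNKT2-like cells were lower without overlap, 2.64-fold on the means. That order did not hold for every iNKT1-like cluster: cluster 1, with 4284 of the 18343 cells, had 144, 176, 57.9 and 146 CPM in the same libraries, below the iNKT2-like cells in 3 of 4. Lower again were iNKT17-like cells (78.2 ± 24.9 CPM) and iNKT0-like cells (62.9 ± 6.69 CPM), 6.23-fold and 7.74-fold below iNKT1-like cells. The iNKT2-like to iNKT17-like step was the one place in its order where neighbouring classes did not overlap. The closest values there were 121 and 115 CPM, both in ACC1 KO 2, and the iNKT17-like one rests on 38 UMIs. The step is therefore too narrow to count as a clear separation. Cycling iNKT2-like cells had more Klf2 than iNKT2-like cells in 4 of 4 libraries (294 ± 90.0 against 185 ± 71.9 CPM), with overlapping ranges. Thinned to 2000 UMIs, at most 4.31% of DP thymocyte-like cells in a library had a Klf2 UMI, against 15.2 to 32.0% of iNKT2-like cells.

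Txnip binds thioredoxin and lowers glucose uptake, and MondoA and FoxO1 are among its known activators (chr3:96557957-96561883, plus strand). It had 137, 60.7, 88.1 and 47.4 CPM in iNKT2-like cells of ACC1 KO 1, ACC1 KO 2, WT 1 and WT 2, against 648, 309, 454 and 260 CPM in iNKT1-like cells. The factor between the classes was even across libraries, 4.72-fold to 5.49-fold lower in iNKT2-like cells. Within both classes the libraries numbered 1 were above those numbered 2. Means elsewhere were 423 ± 172 CPM in interferon-responding, 121 ± 58.3 CPM in iNKT17-like, 65.5 ± 33.4 CPM in iNKT0-like and 39.3 ± 19.4 CPM in cycling iNKT2-like cells.

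Pik3ip1 encodes a membrane protein that inhibits PI3 kinase (chr11:3330401-3342971, plus strand). Its class means ran from 60.4 ± 27.4 CPM in iNKT1-like cells through 38.0 ± 14.4 CPM in iNKT2-like cells to 17.2 ± 6.51 CPM in cycling iNKT2-like cells, and every class overlapped the next. Cycling cells had less than their resting counterparts in 4 of 4 libraries, 1.88-fold less on the means in iNKT1-like and 2.21-fold less in iNKT2-like cells.

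**Figure D1:**
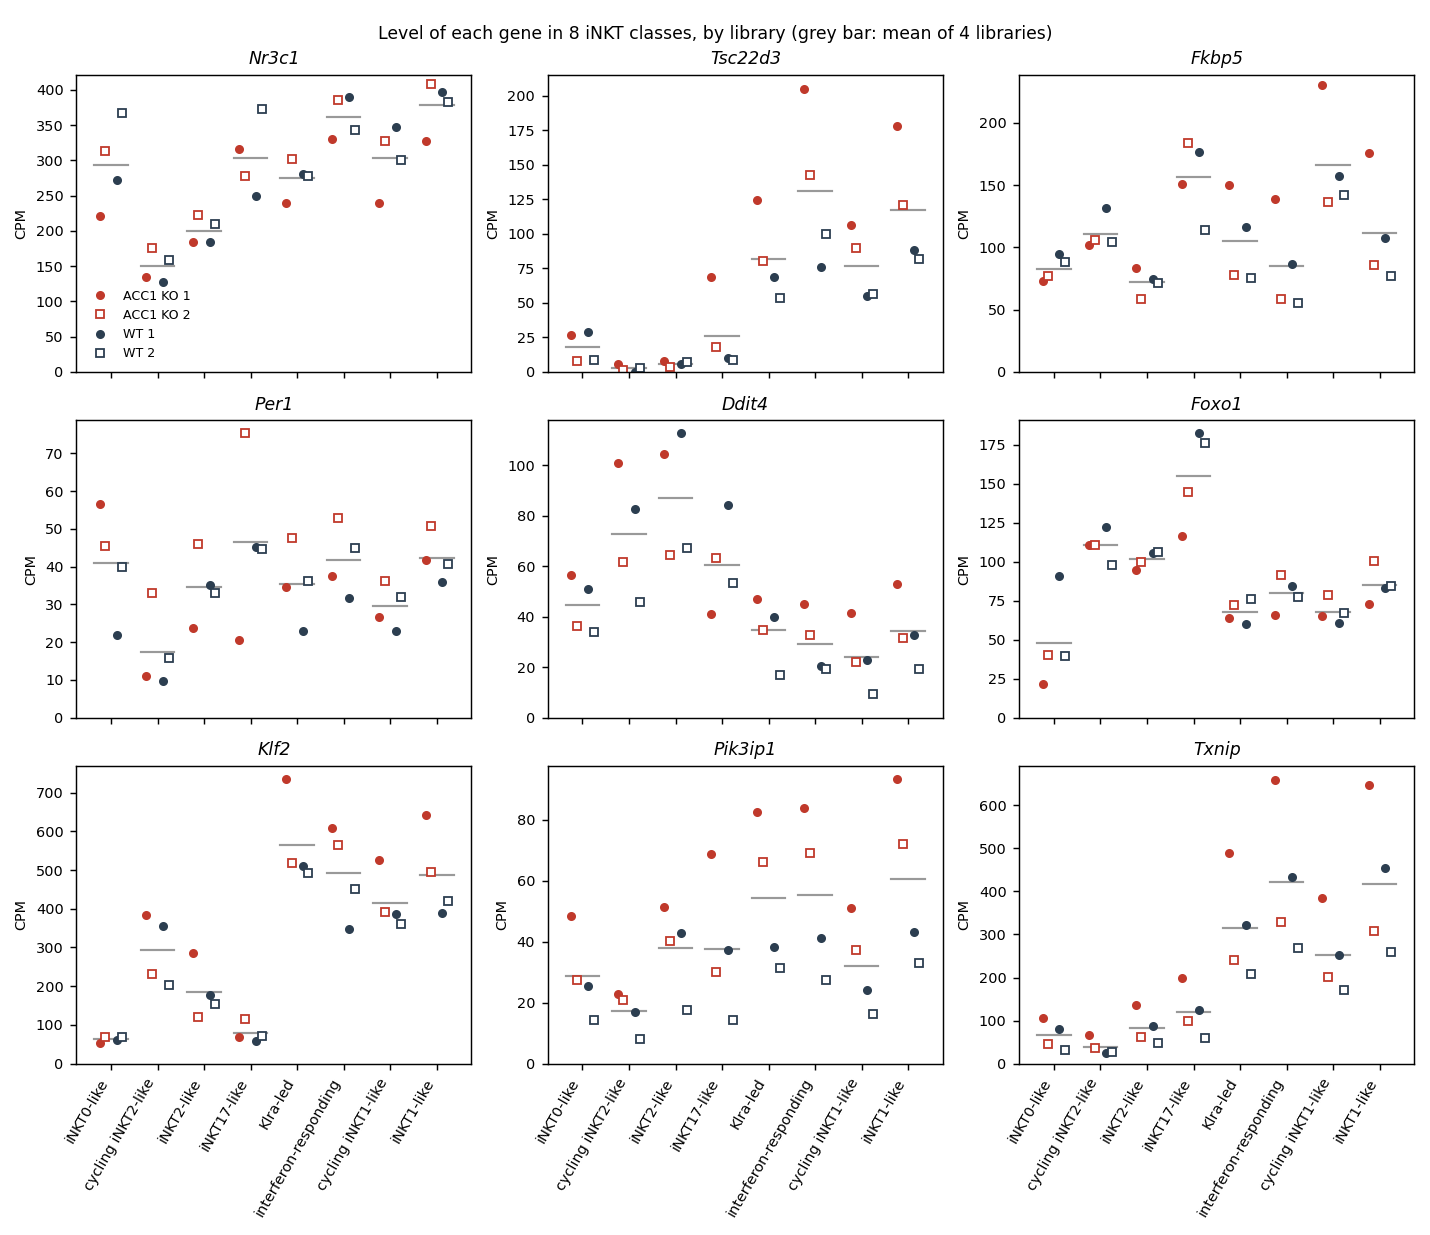
Each panel gives 1 gene in 8 iNKT classes, as CPM on a linear axis from 0. Filled circles are libraries numbered 1 and open squares those numbered 2, red for ACC1 KO and dark for WT, and grey bars are means of the 4 libraries. Tsc22d3, Txnip, Klf2 and Nr3c1 are lower in iNKT2-like than in iNKT1-like cells without overlap, and Ddit4 is higher.

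Set against all genes, separation between classes was common. Between iNKT2-like and iNKT1-like cells, 4 of the 9 genes were lower without overlap (Tsc22d3, Txnip, Klf2 and Nr3c1), where 16.4% of 11984 genes were, and 1 was higher (Ddit4), where 15.8% were. Between iNKT0-like and iNKT1-like cells 3 were lower, against 14.2% of genes, and none was higher, against 25.6%. Between iNKT17-like and iNKT1-like cells 3 were lower, against 10.2%, and 1 was higher, against 12.1%. Klra-led cells had 1 gene lower than iNKT1-like cells, Nr3c1, against 10.7% of genes, and none higher, against 0.964%. Interferon-responding cells had none lower, against 7.22%, and none higher, against 3.29%. Cycling iNKT1-like cells also had none lower than iNKT1-like cells, against 8.98%, and none higher, against 14.8%. Cycling iNKT2-like cells had 4 genes lower than cycling iNKT1-like cells (14.9% of genes) and 2 higher (15.2%). Against iNKT2-like cells they had Nr3c1 lower (11.3% of genes) and Fkbp5 higher (19% of genes).

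**Figure D2:**
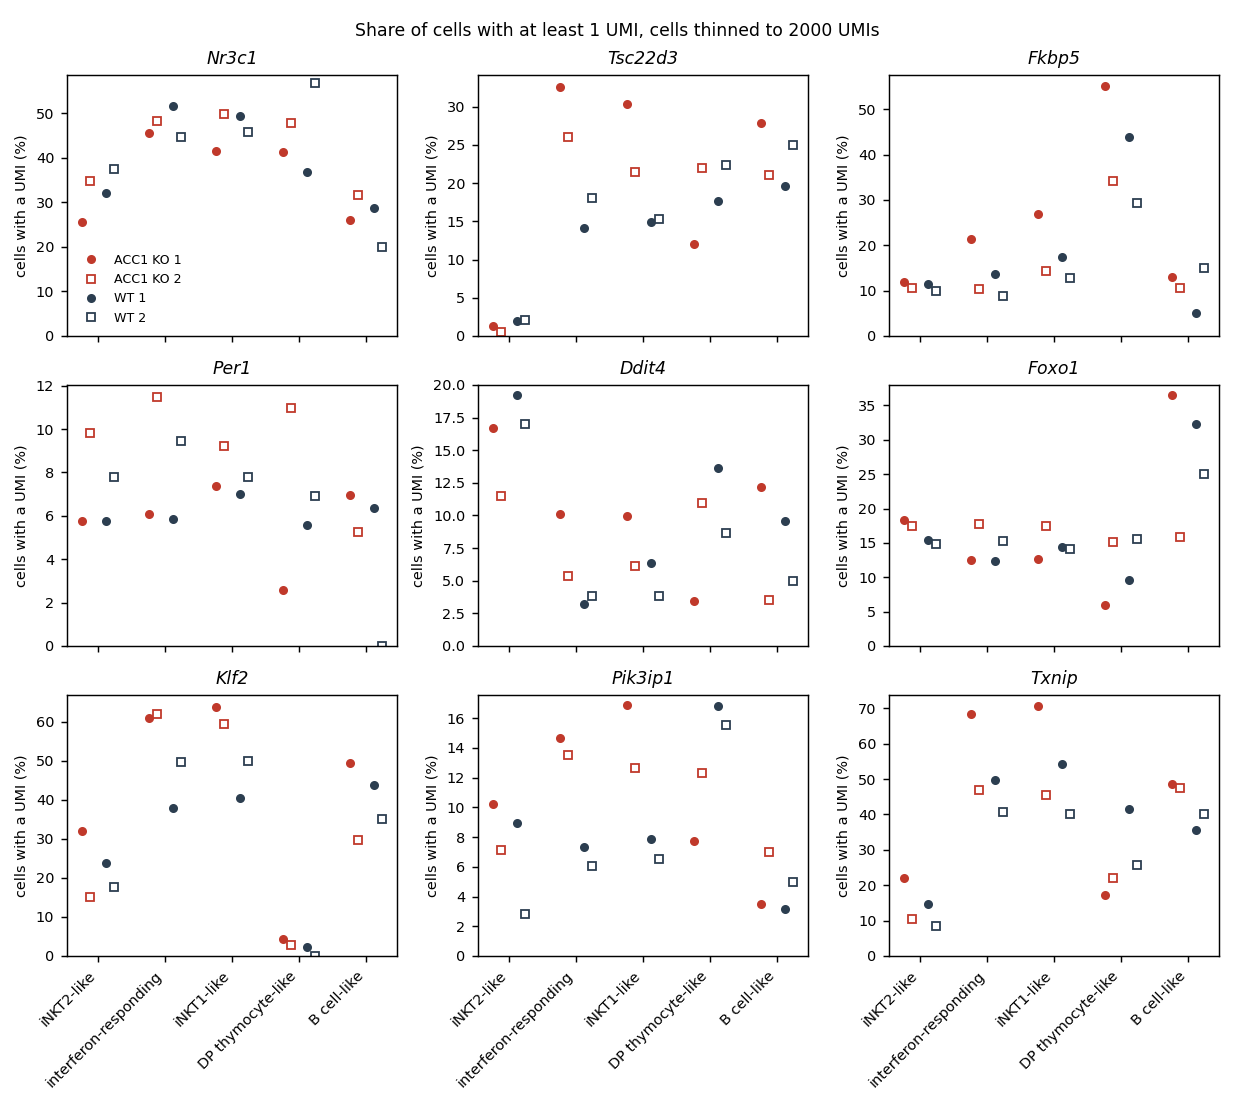
Each panel gives the percentage of cells with at least 1 UMI of a gene among cells thinned to 2000 UMIs (shallower cells left out), for 3 iNKT classes and for the DP thymocyte-like and B cell-like cells set aside, by library. Tsc22d3 is at most 2.13% in iNKT2-like cells and at least 14.9% in iNKT1-like cells, and Klf2 is at most 4.31% in DP thymocyte-like cells.

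The lists of related genes were described by counts alone. Of all 11984 genes, 16.4% were lower and 15.8% higher in iNKT2-like than in iNKT1-like cells without overlap. Some genes stand in more than 1 list, so the lists are not independent. Of 18 glucocorticoid-induced genes measured in both classes, 12 were lower in iNKT2-like than in iNKT1-like cells without overlap and none was higher, and the median log2 ratio was -1.14, against -0.01 for all genes. Anxa1, which encodes the anti-inflammatory annexin A1, was 12.9-fold lower (4.49 CPM in iNKT2-like and 57.7 CPM in iNKT1-like cells), and Sgk1, a kinase close to AKT, was 6.30-fold lower (8.61 and 54.3 CPM). Both were singled out after their values were seen. The 3 highest genes of that list also had lower means: Il7r, the interleukin 7 receptor, had 734 CPM in iNKT2-like and 1538 CPM in iNKT1-like cells, Zfp36l2, an mRNA decay factor, had 246 and 557 CPM in the same order, both without overlap, and Btg1, an antiproliferative factor, had 760 and 1089 CPM with overlap. Of 24 quiescence regulators, 9 were lower and 4 higher, with a median log2 ratio of -0.20. The 4 higher ones were Lef1, Tcf7, Runx1 and Rb1. Lef1, a T cell factor that also serves here as an iNKT0 marker, had 836 CPM in iNKT2-like and 160 CPM in iNKT1-like cells. Of 16 paralogs of the members, 8 were lower and none higher, and of 27 genes of PI3 kinase, AKT and mTORC1, 9 were lower and 1 higher. Klf3, Klf6 and Klf13 count among the lower genes of both the paralogs and the quiescence regulators. FoxO targets split evenly, 4 lower and 4 higher of 25, as did the MondoA axis, 1 and 1 of 7. The 4 lower FoxO targets, Bcl2l11, Irs2, Il7r and Bcl6, are also among the 12 lower glucocorticoid-induced genes. Of 17 receptor partners 2 were lower and 1 higher, of 15 clock genes 6 were lower and 4 higher, and of 17 immediate early and heat shock genes 3 were lower and 2 higher.

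Correlations were taken over the 20 sums of 5 classes with at least 50 cells in every library (4 libraries each). The 3 highest among the genes described here were those between Tsc22d3, Txnip and Klf2. The classes were iNKT2-like, iNKT1-like, Klra-led, interferon-responding and cycling iNKT1-like cells. Pearson's r of log2 CPM was 0.92 for Tsc22d3 with Klf2, 0.91 for Tsc22d3 with Txnip and 0.89 for Txnip with Klf2. Nr3c1 gave 0.78 with Tsc22d3, 0.64 with Txnip and 0.60 with Klf2, and Per1 with Foxo1 gave 0.60. Tsc22d3, Txnip, Klf2 and Nr3c1 were all lower in iNKT2-like than in iNKT1-like cells without overlap, so their values partly repeat that class difference. Tsc22d3, Txnip and Klf2 did not run together between all classes. Klra-led cells had 1.16-fold the Klf2 mean of iNKT1-like cells, but 0.70-fold for Tsc22d3 and 0.75-fold for Txnip. Cycling iNKT2-like cells, outside the 5 classes, had 1.59-fold the Klf2 mean of iNKT2-like cells. For Tsc22d3 and Txnip they had 0.44-fold and 0.47-fold. Fkbp5 with Foxo1 gave -0.77 and Ddit4 with Nr3c1 gave -0.62. The 20 points share 4 libraries and differ in depth between classes, so these values describe the sums and carry no p. Of 5995 other genes, the most like Tsc22d3 were Glipr2 and Ifngr1 (0.98 and 0.97), the most like Txnip were Bcl2l11 and Resf1 (both 0.98), and the most like Klf2 were Sike1 and Rab8a (0.96 and 0.94). Nr3c1 was closest to Nsd3 and Smyd3 (both 0.96), Ddit4 to Naca and Gas5 (0.94 and 0.93), Fkbp5 to Kif2a and Ptges3 (0.92 and 0.88), Per1 to Ptp4a2 and Maml2 (0.91 and 0.89), Foxo1 to Tob1 and Midn (both 0.88), and Pik3ip1 to Frmd8 and Rps15a (0.88 and 0.87).

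Genotypes were compared on the sums of each library, scaled with TMM factors. In all iNKT cells, Pik3ip1 had 81.0 and 63.1 CPM in ACC1 KO 1 and 2, against 38.7 and 30.1 CPM in WT 1 and 2. Both ACC1 KO libraries were above both WT libraries, and the log2 fold change was 1.07 ± 0.20 (SE), the same within each number at 1.07. Tsc22d3 had 145 and 99.5 CPM in ACC1 KO, against 70.5 and 71.9 CPM in WT, again without overlap, at 0.78 ± 0.20, with 1.04 in number 1 and 0.47 in number 2. Klf2 had 595 and 449 CPM in ACC1 KO, against 361 and 410 CPM in WT, at 0.44 ± 0.20, with 0.72 in number 1 and 0.13 in number 2.

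For the remaining genes the genotypes overlapped in all iNKT cells. Ddit4 had 58.1 and 37.1 CPM in ACC1 KO and 38.0 and 22.2 CPM in WT, higher within each number by 0.61 and 0.74. Txnip had 534 and 259 CPM in ACC1 KO and 366 and 232 CPM in WT, and its 2 libraries numbered 1 were the highest. Fkbp5 had 162 and 89.2 CPM in ACC1 KO and 104 and 82.0 CPM in WT, and Per1 had 36.9 and 49.1 CPM in ACC1 KO and 31.2 and 39.1 CPM in WT. Foxo1 (74.6 and 98.7 CPM in ACC1 KO, 79.9 and 85.6 CPM in WT) and Nr3c1 (290 and 367 CPM in ACC1 KO, 338 and 352 CPM in WT) had log2 fold changes of 0.07 ± 0.17 and -0.07 ± 0.17. Their signs differed between the numbers.

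The edgeR test called none of the 9 genes over all iNKT cells, where it called 0.00678% of 14739 genes. Their adjusted p-values from edgeR were 0.475 for Pik3ip1, 0.757 for Tsc22d3 and 0.9998 for the other 7. At an unadjusted edgeR p under 0.05 there were 2 of the 9, against 4.89% of genes. Without WT 1, edgeR called Pik3ip1 (adjusted p = 0.0126). The DESeq2 Wald test called Pik3ip1 (adjusted p = 0.00106), where it called 0.473% of genes higher and 0.261% lower, and left Tsc22d3 at an adjusted p of 0.0808. No overlap with ACC1 KO higher was seen for 3 of the 9 genes, against 14.3% of all genes, and with ACC1 KO lower for none, against 15.2%. Nothing is read from these shares, since the genes were chosen on this contrast. The median log2 fold change was 0.43 for the 9 genes and -0.01 for all genes.

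Other features differed between the libraries at the same time. The summed level of 16 cycling markers was 642 and 738 CPM in ACC1 KO and 344 and 542 CPM in WT, and that of 13 iNKT17 markers was 59.3 and 45.6 CPM in ACC1 KO and 149 and 88.8 CPM in WT. The 10 iNKT0 markers summed to 676 and 685 CPM in ACC1 KO and 572 and 446 CPM in WT, and the 10 iNKT2 markers to 906 and 924 CPM in ACC1 KO and 898 and 690 CPM in WT. The 6 gamma-delta T cell markers summed to 153 and 115 CPM in ACC1 KO and 311 and 230 CPM in WT, and the 9 T cell identity genes to 5728 and 5034 CPM in ACC1 KO and 6651 and 6149 CPM in WT. All 6 of these sums separated the genotypes. Other sets did not: the 16 iNKT1 markers summed to 7531 and 7134 CPM in ACC1 KO and 6869 and 7752 CPM in WT. The 13 interferon markers summed to 785 and 815 CPM in ACC1 KO and 744 and 833 CPM in WT. The Treg, NK and ILC, and erythroid sums overlapped as well, and the myeloid and the stromal and epithelial sums separated. The 11 B cell markers, 7 of them below 1 CPM on average, summed to 269 and 91.5 CPM in ACC1 KO and 97.8 and 83.3 CPM in WT, with overlap. The 10 DP thymocyte markers, 6 of them below 1 CPM, summed to 108 and 100.2 CPM in ACC1 KO and 86.8 and 59.8 CPM in WT, without overlap. The 17 immediate early and heat shock genes summed to 1793 to 3352 CPM in ACC1 KO and 1686 to 2600 CPM in WT, with a median log2 fold change of 0.38, and the median mitochondrial share per cell was 2.504 and 1.341% in ACC1 KO and 3.08 and 1.79% in WT. Their part in the differences was not tested. Cycling and iNKT17-like cells are absent from the iNKT1-like sums that follow.

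**Figure D3:**
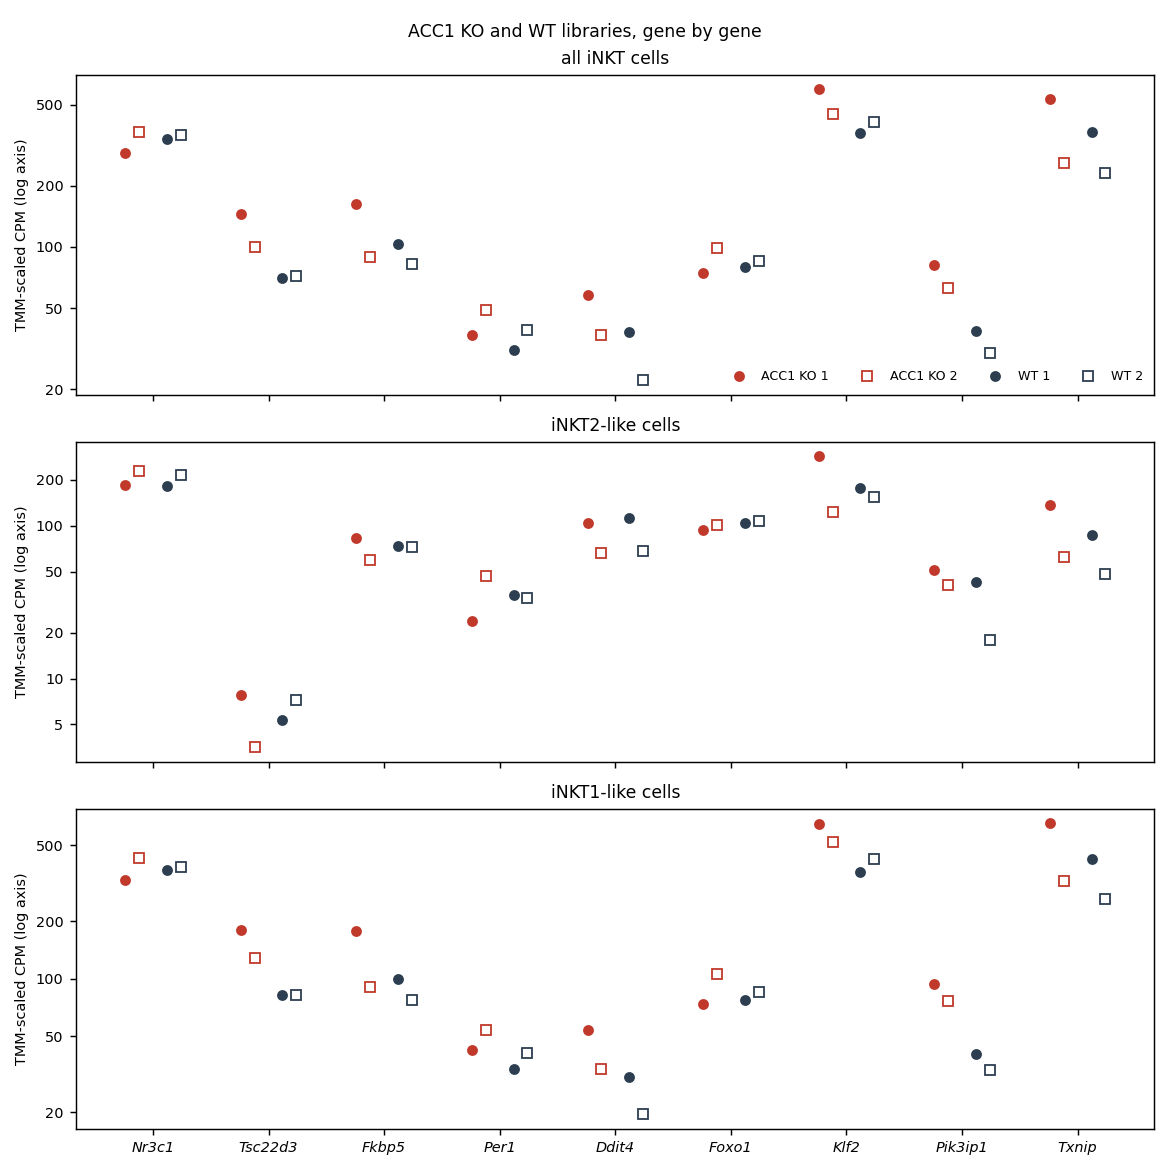
TMM-scaled CPM of each gene in the 4 libraries, on a log axis, for all iNKT cells (top), iNKT2-like cells (middle) and iNKT1-like cells (bottom). Red marks are ACC1 KO, left of the dark WT marks, with circles for number 1 and squares for number 2. Pik3ip1 and Tsc22d3 separate by genotype in the top and bottom panels and not in the middle one.

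In iNKT1-like cells 5 of the 9 genes were higher in both ACC1 KO libraries than in both WT libraries, where 13.5% of 13472 genes were. Pik3ip1 had 94.1 and 76.2 CPM in ACC1 KO, against 40.3 and 33.3 CPM in WT, a log2 fold change of 1.21 ± 0.17, with 1.22 and 1.19 within the numbers. Tsc22d3 had 179 and 128 CPM in ACC1 KO, against 82.1 CPM in each WT library, at 0.90 ± 0.19. For both genes the lower ACC1 KO library was well above the higher WT library. Ddit4 had 53.6 and 33.5 CPM in ACC1 KO, against 30.7 and 19.5 CPM in WT, at 0.80 ± 0.31. Klf2 had 649 and 523 CPM in ACC1 KO, against 363 and 424 CPM in WT, at 0.57 ± 0.19, and Per1 had 42.3 and 53.7 CPM in ACC1 KO, against 33.5 and 40.9 CPM in WT, at 0.37 ± 0.18. The Per1 groups were the closest of the 5. EdgeR called none of the 9 here, against 0.00742% of genes (Scd1 alone), with adjusted p-values of 0.315 for Pik3ip1 and 0.572 for Tsc22d3. Of the 9, 4 were at an unadjusted edgeR p under 0.05, against 3.82% of genes. Without ACC1 KO 2, edgeR called Pik3ip1 (adjusted p = 0.0241) and Tsc22d3 (adjusted p = 0.0405). DESeq2 called both, with adjusted p-values of 1.47e-05 and 0.0116, where it called 0.453% of genes higher and 0.171% lower.

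Pik3ip1, Tsc22d3 and Klf2 were higher without overlap in Klra-led cells too (13.9% of 10319 genes), those 3 and Ddit4 in interferon-responding cells (14% of 10137 genes), and the same 4 in cycling iNKT1-like cells (14.7% of 10057 genes). EdgeR called none of the 9 genes in these classes, against 0.00969% of genes in Klra-led, 0.0296% in interferon-responding and 0.0398% in cycling iNKT1-like cells. The genes it did call were Scd2 in Klra-led cells, Scd2, Srebf1 and Acsl3 in interferon-responding cells, and Scd2, Fads2, Scd1 and Abca1 in cycling iNKT1-like cells, all genes of lipid synthesis or transport. At an unadjusted edgeR p under 0.05 were 2, 4 and 3 of the 9 in these 3 classes, against 3.14, 3.41 and 2.64% of genes. DESeq2 called Pik3ip1 in Klra-led cells (adjusted p = 0.0110), where it called 0.174% of genes higher and 0.0388% lower, and none of the 9 in interferon-responding and cycling iNKT1-like cells, where it called 0.109 and 0.0895% higher. The log2 fold change of Pik3ip1 lay between 1.19 and 1.27 in these 3 classes and that of Tsc22d3 between 0.82 and 1.02. These classes and the iNKT1-like class come from the same 4 libraries, so they are not further replicates.

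The iNKT1-like class held its clusters in different proportions in the 2 genotypes. Cluster 1, led by Atp8a2 and Cd226, made up 19.4 and 10.5% of iNKT1-like cells in ACC1 KO and 47.4 and 24.1% in WT, and cluster 0, led by Gm4208 and Gzma, 40.1 and 26.8% in ACC1 KO and 15.6 and 18.5% in WT. Cluster 2, led by Gm4208 and Ccl5, made up 28.8 and 33.8% in ACC1 KO and 18.1 and 14.1% in WT. The clusters differ in Klf2: cluster 1 had 125 CPM over all its cells, and clusters 0, 2, 4 and 5 had 474 to 652 CPM. Within cluster 0, Klf2 had 829 and 595 CPM in ACC1 KO, against 710 and 567 CPM in WT. Within cluster 2 it had 719 and 526 CPM in ACC1 KO, against 729 and 548 CPM in WT, and within cluster 4 it had 592 and 443 CPM in ACC1 KO, against 599 and 442 CPM in WT. In all 3 the genotypes overlapped. They overlapped in cluster 1 too, with 144 and 176 CPM in ACC1 KO and 57.9 and 146 CPM in WT, and were apart in cluster 5, with 779 and 556 CPM in ACC1 KO and 442 and 516 CPM in WT. Pik3ip1 was higher in both ACC1 KO libraries than in both WT libraries in each of the 5 clusters. Tsc22d3 was in 4 of them and overlapped in cluster 1, with 149 and 75.0 CPM in ACC1 KO and 82.7 and 68.5 CPM in WT. Cluster 5 held only 48 cells of WT 1, so its values there rest on few counts. The clusters share the same libraries and are not further replicates. Shares over all genes were not taken for single clusters.

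An alternative chosen after seeing the data gave every library the same mix of clusters 0, 1, 2 and 4 (1282 and 2063 ACC1 KO cells, 1758 and 3442 WT cells). Klf2 then had 562 and 456 CPM in ACC1 KO, against 511 and 425 CPM in WT, overlapping, with a log2 fold change of 0.12 ± 0.18. Pik3ip1 stayed at 1.16 ± 0.17 (95.0 and 76.3 CPM in ACC1 KO, 41.2 and 35.3 CPM in WT) and Tsc22d3 was at 0.65 ± 0.17 (159 and 118 CPM in ACC1 KO, 88.9 and 87.4 CPM in WT). Ddit4 was at 0.86 ± 0.27 and Per1 at 0.44 ± 0.18. In this setting 4 of the 9 genes were higher without overlap, against 13.4% of 12199 genes, and none was lower, against 14%.

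**Figure D4:**
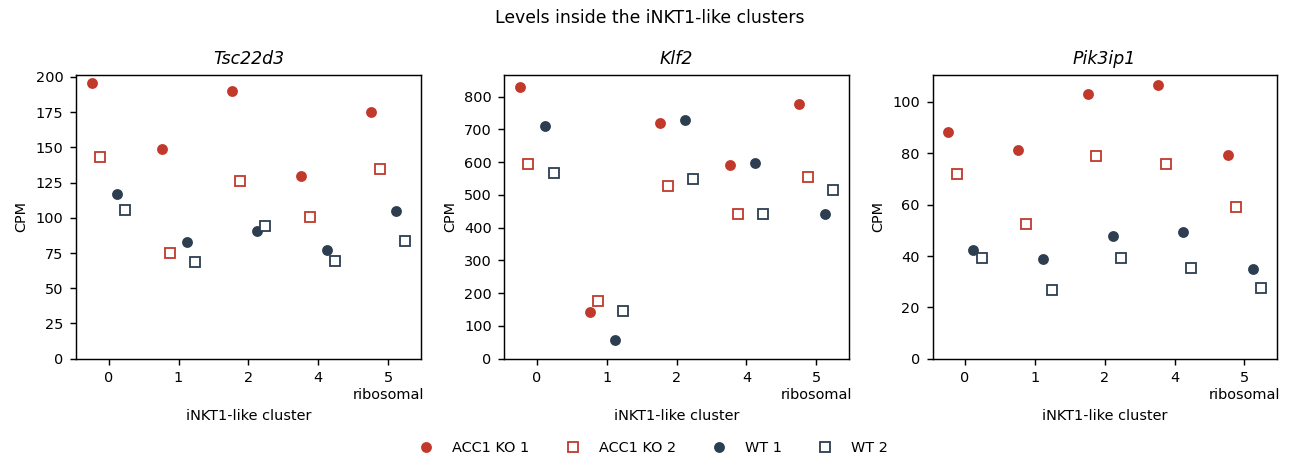
CPM of Tsc22d3, Klf2 and Pik3ip1 in the 5 iNKT1-like clusters by library, red for ACC1 KO and dark for WT, with axes from 0. The cluster numbers are those of the clustering, and cluster 5, with only 48 cells of WT 1, is marked as led by ribosomal protein genes. Klf2 overlaps between genotypes in clusters 0, 1, 2 and 4 and is lowest in cluster 1, Tsc22d3 overlaps in cluster 1, and Pik3ip1 is higher in both ACC1 KO libraries in every cluster.

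In iNKT2-like cells (296 and 409 cells in ACC1 KO, 156 and 141 in WT) none of the 9 genes was higher without overlap, against 12.2% of 9466 genes, and 1 was lower, Foxo1, against 12.9%. Tsc22d3 had 7.79 and 3.55 CPM in ACC1 KO, against 5.33 and 7.28 CPM in WT, a log2 fold change of -0.28 ± 0.55. Ddit4 had 104 and 65.9 CPM in ACC1 KO, against 112 and 68.3 CPM in WT, at -0.09 ± 0.30. Each of these pairs of groups overlapped. Pik3ip1 had 51.1 and 41.1 CPM in ACC1 KO, against 42.7 and 17.9 CPM in WT, and WT 1 lay between the ACC1 KO libraries. Its log2 fold change of 0.63 ± 0.37 was 1.35 without WT 1 and 0.11 without WT 2. Foxo1 had 94.4 and 102 CPM in ACC1 KO, against 105 and 108 CPM in WT. EdgeR called none of the 9 and 0% of all genes here, with 2.2% of all genes and none of the 9 at an unadjusted p under 0.05, and DESeq2 called 0.0211% of genes higher, 0.0106% lower and none of the 9.

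The difference between the genotype effects of the 2 classes was fitted with edgeR in 1 model, with the library as a term. It shares the iNKT1-like sums with the contrast on which the genes were chosen, so it is not independent of that choice. Over all genes, 32 of 12830 differed at an adjusted p under 0.05, which is 0.249%, and 1 of the 9 genes was among them. That gene was Ddit4, whose log2 fold change of ACC1 KO over WT was lower in iNKT2-like than in iNKT1-like cells by a difference of -0.87 ± 0.18 (SE), with an edgeR adjusted p of 0.00243. In number 1 the fold changes were -0.10 in iNKT2-like and 0.80 in iNKT1-like cells, and in number 2 they were -0.05 and 0.78 in the same order. The call was lost with DESeq2 (adjusted p = 0.451), which called 0.0234% of genes. It was also lost in edgeR without ACC1 KO 2 (adjusted p = 0.0656), without WT 1 (adjusted p = 0.0716) and at a clustering resolution of 2 (adjusted p = 0.344), with the difference between -0.83 and -0.88 in every alternative run. At an unadjusted edgeR p under 0.05 were 4 of the 9 genes, against 5.28% of genes. Tsc22d3 had the largest difference, -1.195 ± 0.41, with an edgeR adjusted p of 0.390 on 56 iNKT2-like UMIs. Fkbp5 was at -0.56 ± 0.18 (edgeR adjusted p = 0.308), and at -0.98 with an edgeR adjusted p of 0.0388 at resolution 2. Pik3ip1 was at -0.53 ± 0.22 (edgeR adjusted p = 0.766), at 0.02 without WT 1 and at 0.34 at resolution 2. The remaining 5 genes had adjusted p-values of 1 in edgeR. One of them, Klf2, was at -0.37, at -0.82 without ACC1 KO 1 with an edgeR adjusted p of 0.0461, and at 0.09 without ACC1 KO 2.

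**Figure D5:**
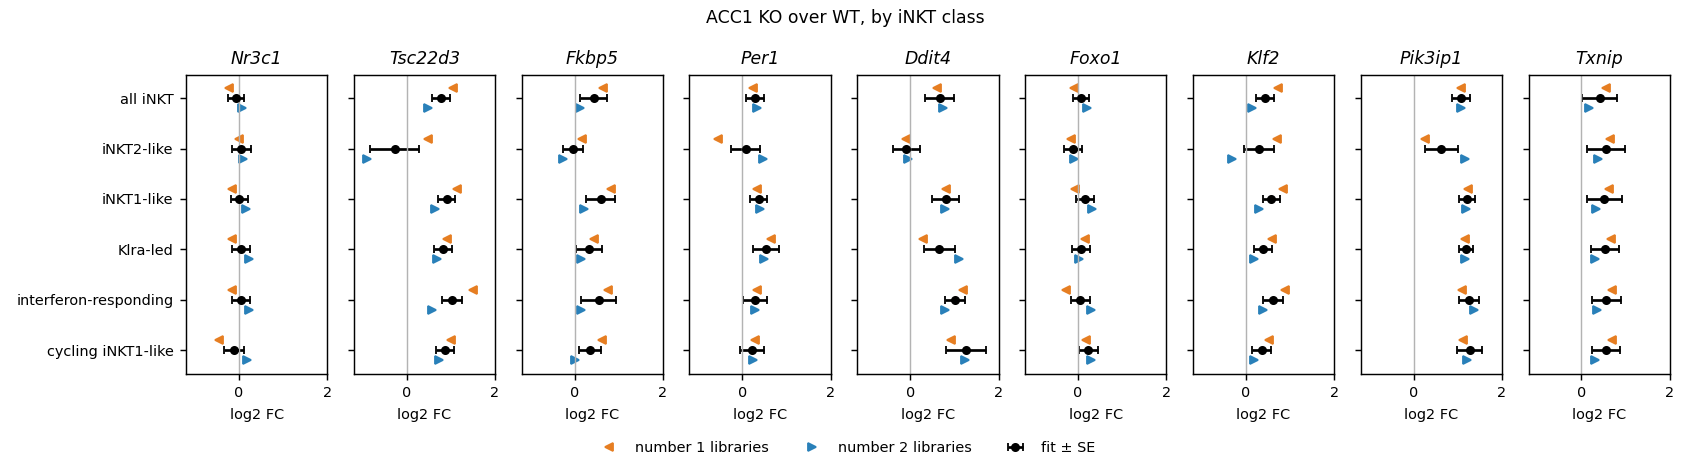
Log2 fold change of ACC1 KO over WT for each gene (panels) in all iNKT cells and 5 classes (rows). Black points are the fitted values with bars of 1 SE, and triangles are the differences within the libraries numbered 1 and 2. Pik3ip1 lies between 1.07 and 1.27 in all rows but iNKT2-like, where it is 0.63 (1.35 without WT 1 and 0.11 without WT 2), and Ddit4 is -0.09 in iNKT2-like cells.

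Related genes outside the 9 were taken from 9 lists and compared between genotypes in all iNKT cells. EdgeR called none of the 150 list genes tested, with 12 of them at an unadjusted p under 0.05, against 4.89% of all genes, and DESeq2 called 2, against 0.473% of all genes higher and 0.261% lower. The median log2 fold change was 0.13 for 20 glucocorticoid-induced genes, 0.11 for 25 FoxO targets, 0.04 for 24 quiescence regulators, 0.03 for 28 genes of PI3 kinase, AKT and mTORC1, 0.01 for 18 receptor partners, 0.05 for 16 clock genes, -0.07 for 17 paralogs and 0.27 for 8 genes of the MondoA axis. Without overlap, 14.3% of all genes were higher in ACC1 KO and 15.2% lower. Of the lists, 4 glucocorticoid-induced genes were higher and 2 lower, and 6 FoxO targets were higher and 1 lower. The paralogs went the other way, with 1 higher and 6 lower, as did the quiescence regulators, with 1 higher and 3 lower. Receptor partners had 3 and 3, the PI3 kinase list 3 and 3, and clock genes 4 and 2. The MondoA axis had 2 and 0, and so had the immediate early and heat shock genes. The abundant glucocorticoid-induced genes Il7r (1857 and 974 CPM in ACC1 KO, 1541 and 1192 CPM in WT), Btg1 (1138 and 803 CPM in ACC1 KO, 1175 and 785 CPM in WT) and Zfp36l2 (616 and 334 CPM in ACC1 KO, 640 and 349 CPM in WT) overlapped between genotypes. So did the receptor chaperones Hsp90ab1 and Hspa8, with log2 fold changes of 0.11 and 0.26. Dnaja1, another chaperone, had 548 and 488 CPM in ACC1 KO and 420 and 467 CPM in WT, without overlap, at 0.22. Among the FoxO targets, Map1lc3b of the autophagosome was at 0.07 and the sestrin Sesn3 at -0.10, and among the quiescence regulators the factor Ets1 was at -0.18 and Ripor2 at 0.05, all with overlap. In the PI3 kinase list the phosphatase Inpp4b was at 0.02 and the ribosomal protein Rps6 at 0.05, with overlap, and the catalytic subunit Pik3cd had 237 and 249 CPM in ACC1 KO and 217 and 207 CPM in WT, without overlap, at 0.20. In the clock list the nuclear receptor Rora and Clock itself were both at -0.06 with overlap, and the repressor Bhlhe40 had 45.8 and 60.5 CPM in ACC1 KO and 32.2 and 37.1 CPM in WT, without overlap, at 0.62. In the MondoA axis, thioredoxin (Txn1), the partner of Txnip, had 249 and 270 CPM in ACC1 KO and 185 and 236 CPM in WT, without overlap, at 0.30, while Txnrd1, its reductase, was at -0.22 and Mlxip, which encodes MondoA, at 0.06. The paralogs Tsc22d4 and Klf13 were at -0.07 and -0.10 with overlap, and Klf3 had 119 and 121 CPM in ACC1 KO and 124 and 145 CPM in WT, lower without overlap at -0.16. Of the immediate early and heat shock genes, Jund and Junb overlapped, and the chaperonin Hspe1 had 335 and 364 CPM in ACC1 KO and 257 and 328 CPM in WT, without overlap. The genes that DESeq2 called were Hk2 and Npas2. Hk2, a hexokinase that traps glucose in the cell, had 18.3 and 22.9 CPM in ACC1 KO, against 5.36 and 7.92 CPM in WT (log2 fold change 1.62, adjusted p = 9.58e-06 in DESeq2 and 0.366 in edgeR). Npas2, a relative of the clock factor CLOCK, had 15.7 and 16.1 CPM in ACC1 KO, against 8.38 and 5.55 CPM in WT (adjusted p = 0.00533 in DESeq2 and 0.520 in edgeR). Neither Hk2 nor Npas2 overlapped between genotypes. In iNKT1-like cells DESeq2 called Hk2 and Klf9. Klf9, a zinc finger factor induced by glucocorticoids, in all iNKT cells had 38.2 and 24.9 CPM in ACC1 KO and 20.9 and 14.98 CPM in WT, without overlap.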

How the data were processed

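The 4 deposited matrices hold UMI counts of 32285 genes, not normalized, and the submitters' processing notes name Cell Ranger 7.0.0 and the build mm10. Counting intervals and floors cover counting error only; a count of 0 was taken to allow up to 3 counts. The 9 genes and all gene lists were chosen with earlier results of these data known.

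Of 30455 barcodes, those with under 500 genes, under 1000 UMIs or at least 10% mitochondrial UMIs were removed (146 and 67 in ACC1 KO, 42 and 33 in WT), as were doublets scored against simulated ones (5.02 and 6.83% in ACC1 KO, 4.36 and 7.91% in WT). The 28247 cells left were clustered (2000 variable genes without the 9 genes and list genes, 30 components, 15 neighbours, Leiden at resolution 1, leidenalg 0.10.2) and named from 15 marker sets. The limits on marker scores that decide a name were set after earlier results were seen. B cell-like (614) and DP thymocyte-like cells (602) were set aside. The Klra-led cluster stayed apart because its top 10 genes held no iNKT1 marker and 1 NK marker. Clusters 1 and 4 of the iNKT1-like class had no marker of any class among their top 10 genes. A marker score is the mean log2 level of a set less its median over clusters. Cluster 1 scored 0 for iNKT1 and 0.92 for iNKT2, against limits of -1 and 2. That iNKT2 score was the highest among the iNKT1-like clusters, so its name is the least secure of them.

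Counts were summed per library and class, giving 28.5 M and 65.5 M UMIs in ACC1 KO and 23.6 M and 63.5 M in WT over all iNKT cells. Genotypes were compared with the edgeR 4.0.16 quasi-likelihood F test (TMM, filterByExpr, robust), adjusted by Benjamini-Hochberg over all genes tested at 0.05, wherever every library had at least 50 cells, and with DESeq2 1.42.0 as an alternative. Genotype levels are TMM-scaled CPM and class levels unscaled CPM. The smallest two-sided p that exact permutation of 2 and 2 libraries allows is 0.333. Scripts were tested on simulated counts. Promoters came from RefSeq and gene positions from GENCODE vM21.

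Besides the 9 genes, the text names from each list up to 3 of its most abundant genes and any gene called, the 2 genes most like each of the 9 (Pearson correlation, at least 20 CPM), and any gene called where 5 or fewer were. Alternatives were DESeq2 size factors or its Wald test, a replicate block, other filters on genes and cells, other clustering settings, doublets kept, thinned cells or sums, equal class mixes and each library left out. Omitting the ribosomal-led cluster, counting Klra-led cells as iNKT1-like and the same mix of iNKT1-like clusters were chosen after seeing the data.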

Additional observations from a re-analysis of the deposited data

Results flagged for a closer look

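Ddit4 is listed because its genotype effect passed the test of a difference between 2 classes of the same libraries. The 9 genes were chosen on the ACC1 KO and WT contrast, whose iNKT1-like sums this test uses again, so its p is not independent of that choice and is given as a description. Its log2 fold change of ACC1 KO over WT was -0.09 ± 0.30 in iNKT2-like cells and 0.80 ± 0.31 in iNKT1-like cells (SE, 2 libraries per genotype), and the difference of -0.87 ± 0.18 passed the edgeR interaction test with an adjusted p of 0.00243 over 12830 genes. The call was lost with DESeq2, without ACC1 KO 2, without WT 1 and at resolution 2. The difference kept its sign in every alternative run, between -0.83 and -0.88, with adjusted p-values between 0.00345 and 0.451 over edgeR and DESeq2. WT libraries of iNKT2-like cells held 156 and 141 cells.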

How the results depend on the processing

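Counts of genes called between genotypes moved widely with the setting, for all iNKT, iNKT1-like, Klra-led, interferon-responding, cycling iNKT1-like and iNKT2-like cells in this order. The main counts were 1, 1, 1, 3, 4 and 0. A replicate block gave 1406, 1188, 500, 323, 203 and 34. The DESeq2 Wald test gave 104, 84, 22, 11, 9 and 3, and no filter on low counts gave 344, 219, 109, 64, 22 and 21. Leaving out 1 library gave 6 to 72, 0 to 25, 3 to 13, 5 to 11, 7 to 28 and 11 to 57. Sums thinned to the smallest total gave 3 in iNKT1-like, 9 in Klra-led, 6 in interferon-responding, 1 in cycling iNKT1-like and 3 in iNKT2-like cells. A mean of at least 10 CPM gave 0 in all iNKT, 0 in iNKT1-like and 1 in cycling iNKT1-like cells. Doublets kept, and likewise resolution 2, gave 2 in iNKT1-like, 2 in Klra-led and 5 in interferon-responding cells. Every deposited barcode gave 0 and the same mix of iNKT classes 3 in all iNKT cells. In iNKT1-like cells, omitting the ribosomal-led cluster gave 0 and the same mix of 4 clusters 2. The class difference was called for 32 genes, for 3 with DESeq2, 17 with the members and list genes kept for clustering, and 27 to 59 without 1 library. The cause was not tested.

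The labels do not say that equal numbers mark a pair. Libraries of one number are alike in depth and sex-linked transcripts, and their deviations from the group means correlated at 0.693, with only 2 pairs. With 2 libraries per genotype the crossed value (-0.693) is the exact negative by construction, so it adds no evidence of pairing. With the replicate block, edgeR called 7 of the 9 genes over all iNKT cells (all but Foxo1 and Nr3c1), where it called 1406 of 14739 genes. Pik3ip1 had an adjusted p of 3.63e-12 there and Txnip 0.0401. The same 7 were called in iNKT1-like cells, where edgeR called 1188 of 13472 genes. Pik3ip1 was at 9.30e-25, Tsc22d3 at 3.49e-12 and Ddit4 at 5.47e-14. With 4 libraries the block leaves few residual degrees of freedom, so these p-values lean on spread shared across genes. Without a filter on low counts, edgeR called Pik3ip1, Tsc22d3 and Ddit4 in both groups of cells, where it called 344 and 219 genes. Of 889 genotype values of the 9 genes under alternatives, 841 kept their sign, but 156 were marked as moved from the main value. All 99 of Pik3ip1 kept their sign, but 46 of them were marked as moved, the most of any of the 9 genes. The log2 fold change of Pik3ip1 ran from 0.89 to 1.28 in all iNKT cells and from 0.11 to 1.35 in iNKT2-like cells. All alternatives draw on the same 4 libraries, so a kept sign is not further evidence. Between iNKT2-like and iNKT1-like cells 5 genes were without overlap, 4 with doublets kept (Klf2 lost) and 6 without the ribosomal-led cluster (Fkbp5 added). Unthinned, the share of positive cells was lower in iNKT2-like than in iNKT1-like cells in 4 of 4 libraries for 3 genes (Tsc22d3, Txnip and Klf2). It was higher in 4 of 4 for 3 others (Ddit4, Per1 and Foxo1). Thinned, 5 genes were lower (Tsc22d3, Txnip, Klf2, Fkbp5 and Nr3c1) and 1 was higher (Ddit4). These shares were not taken for all genes. Resolution 0.5 gave no iNKT2-like class and so no values for it. Depth limits Tsc22d3 in iNKT2-like cells, at 56 UMIs.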

Other observations

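The sort also held DP thymocyte-like (602) and B cell-like cells (614), set aside from the comparisons. Fkbp5 had 505, 336, 336 and 341 CPM in DP thymocyte-like cells of ACC1 KO 1, ACC1 KO 2, WT 1 and WT 2, on average 3.48-fold above all iNKT cells of the same libraries. Klf2 was the reverse, with 10.1, 11.03, 13.8 and 16.6 CPM in the same libraries, 35.1-fold below all iNKT cells. Nr3c1 averaged 313 CPM in DP thymocyte-like and 337 CPM in all iNKT cells. These Klf2 values rest on 36 UMIs.

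Foxo1 was higher in B cell-like than in all iNKT cells in 4 of 4 libraries, 176 CPM on average, 2.08-fold above, and Nr3c1 was lower in 4 of 4, 177 CPM on average, 1.90-fold below. Tsc22d3 averaged 141 ± 66.6 CPM in B cell-like cells (SD, n = 4). The B cell-like cells numbered 133 and 72 in ACC1 KO and 388 and 21 in WT, and neither class was compared between genotypes.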
